A study of Mus musculus with 12 samples.

Results

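The adrenergic receptors are the G protein-coupled receptors through which cells sense noradrenaline and adrenaline, and 8 genes of the family were examined here in the striatum of hemiparkinsonian mice: Adra1a, Adra1b, Adra1d, Adra2a, Adra2b, Adra2c, Adrb1 and Adrb3. They were selected by gene symbol from the 52169 gene symbols of the deposited transcript table, and they accounted for 33 of its 189660 transcripts. Each gene was represented by its most abundant transcript.

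RNA was sequenced from striatal punches of female C57BL/6J mice whose right medial forebrain bundle had been injected with 6-OHDA, a toxin that destroys dopaminergic fibres. All of them had been given desipramine at 25 mg/kg before the toxin, to spare noradrenergic neurons, and had recovered for 2 weeks. L-DOPA at 10 mg/kg with benserazide at 7.5 mg/kg was injected once (acute) or daily for 9 days (chronic), and tissue was taken 1 h after the last dose. The 12 libraries formed 4 groups of 3: acute unlesioned, acute lesioned, chronic unlesioned and chronic lesioned striatum. Every group had received L-DOPA, so no group shows the lesion without the drug, and the unlesioned side belonged to operated animals. The labels count 12 mice for the 12 libraries, whereas the study notes that in this model a mouse can act as its own control. Animal age was not given in the sources used here.

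The receptors fall into 3 classes by the G protein they use. Alpha-1 receptors couple to Gq and phospholipase C, alpha-2 receptors couple to Gi and lower cyclic AMP, and beta receptors couple to Gs and raise it. In the striatum, which has few noradrenergic fibres, alpha-2C is known as the abundant subtype and sits largely on medium spiny neurons, where dopamine can also activate it.

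The libraries held between 87695043 and 173116525 counts summed over transcripts, in which a read is counted on every transcript it overlaps. Markers of medium spiny neurons, the principal striatal cell, were abundant in each library, with a summed level of 9 genes between 1771 and 2382 CPM (counts per 1000000 counts). Markers of noradrenergic or dopaminergic cell bodies, a list of 6 genes, summed to 8.41 CPM or more in chronic lesioned libraries and to 1.13 to 2.14 CPM in the other groups. Of these, Th, the tyrosine hydroxylase gene, was the 1 gene tested, and Dbh and Slc6a2 were at no more than 0.0456 CPM throughout. The chronic unlesioned library numbered 2 stood apart, with 449 CPM of the choroid plexus gene Ttr against at most 1.51 CPM elsewhere, and with 2.69 CPM of the thalamic transporter gene Slc17a6. The chronic lesioned library numbered 2 had 0.758 CPM of Slc17a6, and the remaining libraries had at most 0.511 CPM. The summed level of 9 cortical glutamatergic markers ranged from 6.59 to 48.4 CPM and was lowest in the lesioned libraries numbered 2 and 3 of both treatments. Astrocyte markers summed to 534 to 590 CPM in acute unlesioned and 597 to 760 CPM in acute lesioned libraries. In the chronic groups they summed to 539 to 627 CPM in unlesioned and 637 to 668 CPM in lesioned libraries. Of the 9 astrocyte markers, 3 were called higher in the acute and 1 in the chronic lesion comparison, and 0 lower. Their part in the lesion changes was not tested.

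Of the members, 5 matched a promoter in the RefSeq table (GRCm38.p6), and the 250 bases before the start are shown for the 3 genes whose transcripts differed between lesioned and unlesioned striatum. Capitals mark a match on either strand to TGACGTCA, the cyclic AMP response element (CRE), to its core TGACG, to the AP-1 motif TGANTCA or to the EGR motif GCGNGGGCG. They are binding motifs of factors that neuronal activity induces or activates. A full CRE contains the core. The windows lie at chr5:35278316-35278565 (plus strand, Adra2c), chr2:127362929-127363178 (plus strand, Adra2b) and chr19:56721867-56722116 (plus strand, Adrb1).
Adra2c: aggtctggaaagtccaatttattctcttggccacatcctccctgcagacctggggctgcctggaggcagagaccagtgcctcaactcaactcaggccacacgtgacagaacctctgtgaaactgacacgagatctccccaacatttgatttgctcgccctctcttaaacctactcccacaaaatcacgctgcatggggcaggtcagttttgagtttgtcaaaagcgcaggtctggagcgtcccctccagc
Adra2b: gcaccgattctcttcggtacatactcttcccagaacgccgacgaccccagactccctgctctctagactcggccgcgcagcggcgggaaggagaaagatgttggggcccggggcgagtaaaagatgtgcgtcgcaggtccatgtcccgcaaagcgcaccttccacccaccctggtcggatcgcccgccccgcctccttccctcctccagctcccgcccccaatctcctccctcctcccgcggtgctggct
Adrb1: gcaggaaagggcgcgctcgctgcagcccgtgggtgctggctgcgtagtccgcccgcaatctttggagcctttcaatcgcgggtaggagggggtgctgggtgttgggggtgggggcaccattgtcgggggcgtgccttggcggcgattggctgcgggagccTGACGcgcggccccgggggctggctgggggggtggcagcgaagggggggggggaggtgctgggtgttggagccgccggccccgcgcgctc

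The Adrb1 window was rich in G and C, at 74.0% with 24 CpG, and that of Adra2b held 66.0% with 23 CpG. The Adra2c window held 53.6% G and C with 6 CpG, against medians of 52.4% and 6 over 32851 promoters. The single match among them was a CRE core 90 bases before the Adrb1 start, a motif held by 17.77% of all promoters in the same window. No other match to these letters was found in the 3 windows. A full CRE was held by 1.546% of promoters, AP-1 by 6.749% and EGR by 4.697%. Of the other members, Adra2a held a CRE core and 1 of the 2 Adra1b promoters held an AP-1 match.

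In the unlesioned striatum Adra2c had the highest level per transcript length of the 8 genes. Its level was 4.92 ± 0.723 CPM per kilobase (SD, n = 3) after acute and 4.88 ± 0.564 (SD, n = 3) after chronic L-DOPA. Adrb1 came second, at 1.54 ± 0.0932 and 1.36 ± 0.0850 CPM per kilobase (SD, n = 3). Its libraries did not overlap those of Adra2c in either unlesioned group. Adra2a, Adra1b and Adra1a lay between 0.194 and 0.306 CPM per kilobase on average in both unlesioned groups, and overlapped from 1 to the next in the acute group. In the chronic group Adra1b overlapped Adra2a, while Adra2a lay above Adra1a without overlap, with Adra1d between them at 0.222 CPM per kilobase and overlapping both. Adra2b and Adra1d were lower in the acute unlesioned group, at 0.102 and 0.0816 CPM per kilobase, and overlapped each other. Adrb3 was lowest in every group, at a mean of 0.0126 to 0.0270 CPM per kilobase.

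In the lesioned striatum the leading pair lay closer together. After acute L-DOPA, Adra2c stood at 2.79 ± 0.179 and Adrb1 at 2.06 ± 0.193 CPM per kilobase (SD, n = 3), with no overlap between them. After chronic L-DOPA Adrb1 had the higher mean, 3.27 ± 0.605 against 2.41 ± 0.525 CPM per kilobase (SD, n = 3), but their libraries overlapped. As a share of the summed level per kilobase of the 8 genes, Adra2c made up 67.3% on average in acute unlesioned and 65.6% in chronic unlesioned striatum. It made up 48.5% in acute lesioned and 35.6% in chronic lesioned striatum. The share of Adrb1 was 21.2% and 18.3% in the unlesioned groups, and 35.8% and 48.5% in the lesioned groups. These shares are a description and were not tested.

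**Figure D1:**
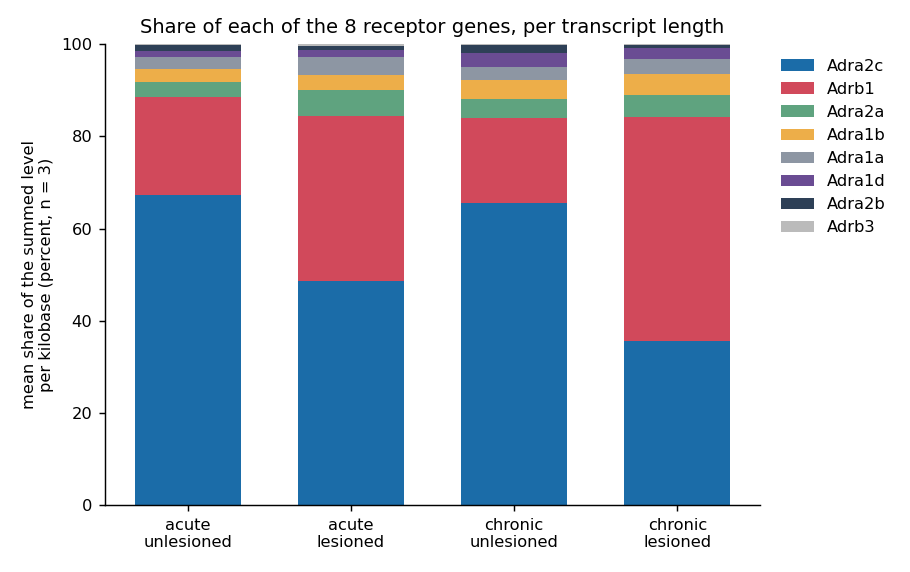
Stacked bars give the mean share (percent, n = 3 libraries) of each of the 8 receptor genes in their summed level per kilobase of transcript, for the 4 groups. Adra2c falls from 67.3% in acute unlesioned to 35.6% in chronic lesioned striatum, and Adrb1 takes 48.5% there.

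The lesion comparisons ask how receptor transcripts differed between dopamine-denervated and intact striatum under L-DOPA. In both treatments 3 of the 7 members that passed the filter on low counts differed, and they were the same 3: Adra2b and Adra2c were lower and Adrb1 was higher on the lesioned side. With 1 transcript per gene, 15.3% of 20402 genes passed the threshold of an adjusted p under 0.05 in the acute comparison and 13.7% of 19742 in the chronic comparison. In both, the libraries of those 3 members did not overlap between sides, as for 35.0% of genes in the acute and 32.3% in the chronic comparison. The median log2 fold change of the 7 members was 0.16 in the acute and -0.0034 in the chronic comparison, against 0.015 and -0.015 over all genes tested.

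**Figure D2:**
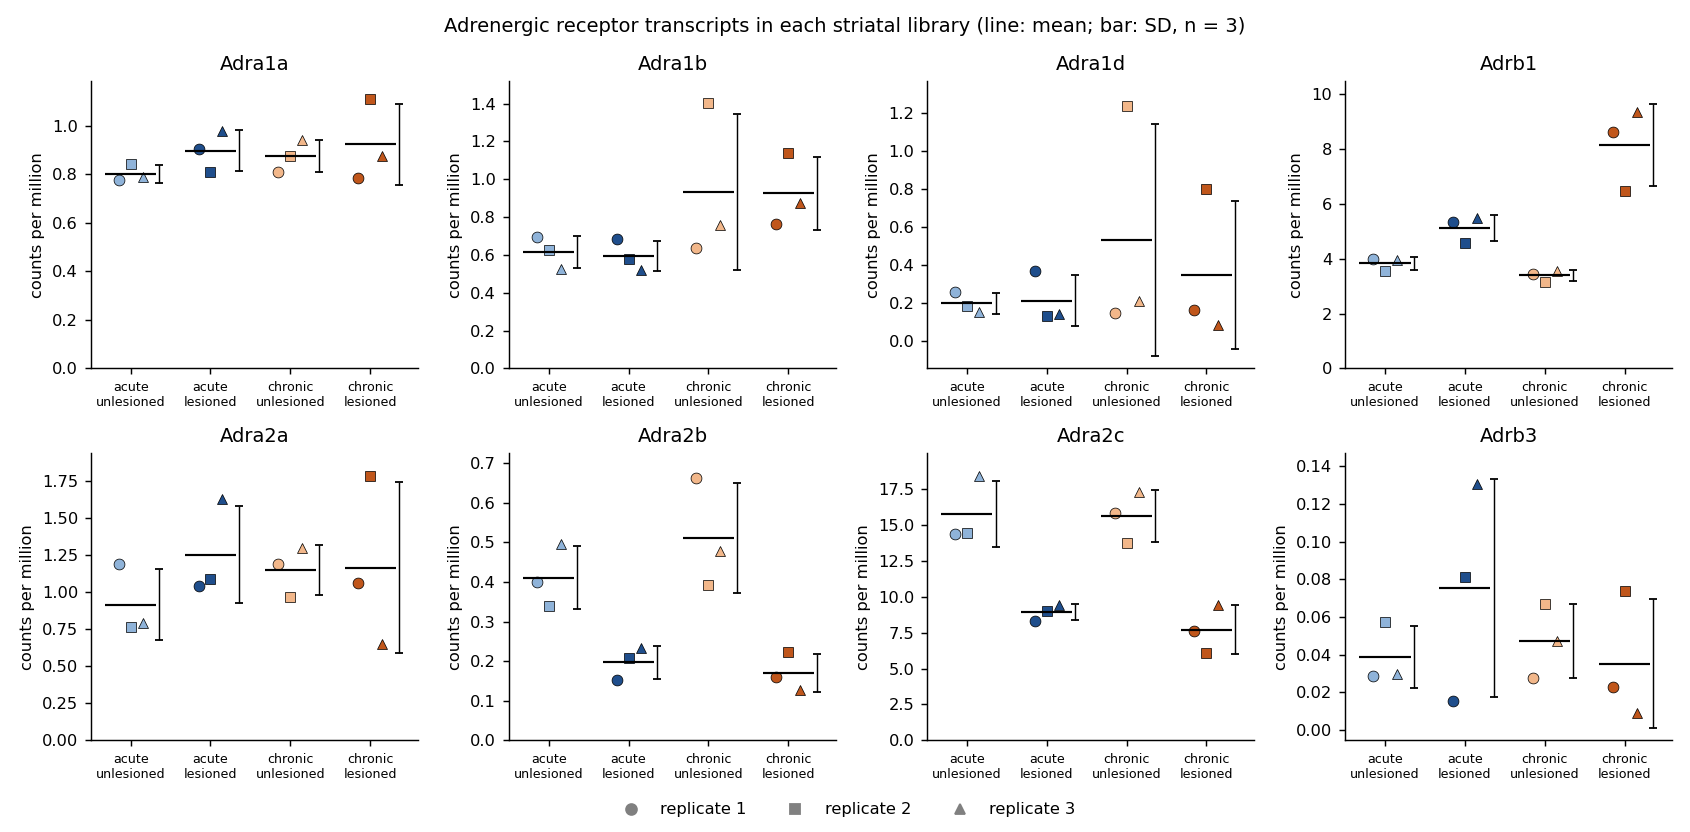
Each panel shows 1 receptor gene in CPM, with 1 point per library, the group mean as a line and the SD as a bar (n = 3 per group). Adra2b and Adra2c are lower and Adrb1 is higher in lesioned than in unlesioned libraries with no overlap, and the high Adra1d values are the chronic libraries numbered 2.

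Among the alpha-1 receptors, Adra1a (chr14:67254095-67352166, plus strand, mm9) was at much the same level in all libraries. Its 4 groups had means of 0.801 ± 0.0361, 0.897 ± 0.0846, 0.876 ± 0.0651 and 0.924 ± 0.167 CPM (SD, n = 3; acute unlesioned, acute lesioned, chronic unlesioned, chronic lesioned). The groups overlapped in every comparison. The log2 fold change of the lesion was 0.17 (95% interval -0.11 to 0.45) after acute and 0.079 (95% interval -0.29 to 0.44) after chronic L-DOPA. Antisense clones overlap this gene, and the library kit does not mark strand, so reads from them cannot be told apart from its own.

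Adra1b (chr11:43588108-43649834, minus strand, mm9) did not differ between sides beyond its spread in either treatment. In acute unlesioned libraries it was at 0.695, 0.626 and 0.525 CPM, and in acute lesioned ones at 0.682, 0.578 and 0.522 CPM. In chronic unlesioned libraries it was at 0.636, 1.40 and 0.759 CPM, and in chronic lesioned ones at 0.763, 1.14 and 0.875 CPM. All chronic lesioned libraries lay above all acute lesioned ones, while the unlesioned groups overlapped. The highest values of both chronic groups came from the libraries numbered 2, which also carried the most Slc17a6. The part of that tissue in the Adra1b level was not tested.

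Adra1d (chr2:131371093-131388021, minus strand, mm9) was dominated by the same libraries. It stood at 1.24 CPM in the chronic unlesioned and 0.795 CPM in the chronic lesioned library numbered 2, and at 0.0820 to 0.364 CPM in the other 10. Its groups overlapped in every comparison. The lesion log2 fold change was 0.16 (SE 0.38) after acute and -0.58 (SE 0.84) after chronic L-DOPA. The latter was 0.96 without the chronic unlesioned library numbered 2, -2.15 without the chronic lesioned one and -0.60 without both. None of these values passed the test. Antisense clones overlap this gene as well.

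**Figure D3:**
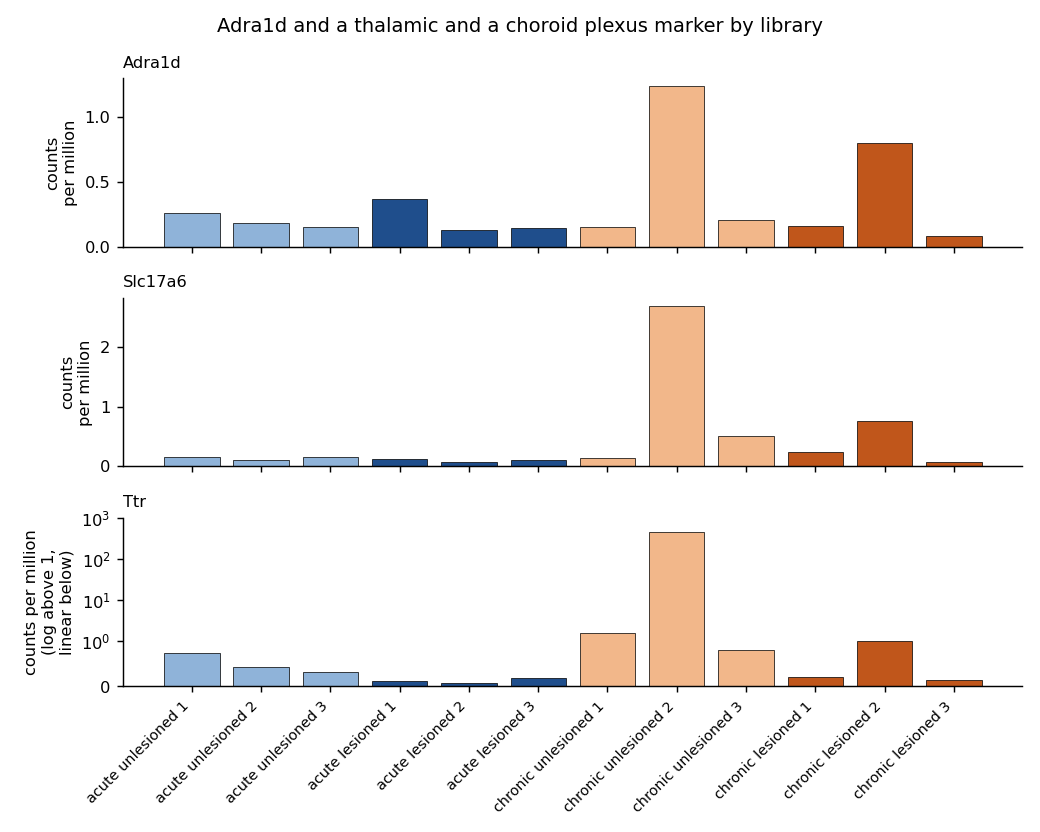
Bars give the CPM in each of the 12 libraries for Adra1d, the thalamic marker Slc17a6 and the choroid plexus marker Ttr (log axis above 1, linear below). Adra1d and Slc17a6 are highest in the chronic unlesioned library numbered 2, at 1.24 and 2.69 CPM, and second highest in the chronic lesioned library numbered 2, at 0.795 and 0.758 CPM.

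The alpha-2 receptors divided. Adra2c (chr5:35621215-35624412, plus strand, mm9), an intronless gene whose promoter is printed above, was at 14.4, 14.4 and 18.4 CPM in acute unlesioned libraries and at 8.31, 9.02 and 9.44 CPM in acute lesioned ones. It was at 15.8, 13.7 and 17.3 CPM in chronic unlesioned libraries and at 7.63, 6.07 and 9.42 CPM in chronic lesioned ones. Every lesioned library lay below every unlesioned one. The log2 fold change was -0.81 (SE 0.094, adjusted p = 0.000172) after acute and -1.02 (SE 0.15, adjusted p = 0.00130) after chronic L-DOPA, by the edgeR quasi-likelihood test, Benjamini-Hochberg adjusted. These are levels 1.76-fold and 2.02-fold lower in lesioned striatum. In tissue of mixed cells, fewer cells of a type and less RNA per cell cannot be told apart. The summed medium spiny neuron markers overlapped between sides, at 1809 to 2161 CPM in acute unlesioned and 1951 to 2130 CPM in acute lesioned libraries. Of these 9 markers, 4 were called higher and 4 lower in the acute lesion comparison, and 1 higher in the chronic one, so the sum does not show each marker at the same level. In the chronic groups the sums were at 1777 to 1922 CPM in unlesioned and 1771 to 2382 CPM in lesioned libraries. With the cortical marker score as a covariate the Adra2c fold changes were -0.88 and -0.93, and both passed the test.

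Adra2b (chr2:127188944-127192957, plus strand, mm9), also intronless, had far fewer reads. It was at 0.399, 0.338 and 0.495 CPM in acute unlesioned libraries and at 0.152, 0.208 and 0.233 CPM in acute lesioned ones, from 47 to 70 and from 18 to 25 reads. In chronic unlesioned libraries it was at 0.663, 0.392 and 0.477 CPM, and in chronic lesioned ones at 0.159, 0.222 and 0.128 CPM, from 14 to 24 reads on the lesioned side. Lesioned and unlesioned libraries did not overlap in either treatment. The log2 fold change was -1.06 (SE 0.24, adjusted p = 0.0134) after acute and -1.57 (SE 0.29, adjusted p = 0.00585) after chronic L-DOPA, by the edgeR quasi-likelihood test, Benjamini-Hochberg adjusted. The acute call was lost without the acute unlesioned library numbered 3 (log2 fold change -0.92, adjusted p = 0.0580 by edgeR) and without the acute lesioned library numbered 1 (-0.88, adjusted p = 0.0502 by edgeR). The chronic call was lost with the cortical marker score as a covariate (log2 fold change -1.41, adjusted p = 0.0516 by edgeR).

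Adra2a (chr19:54119672-54123472, plus strand, mm9), the third alpha-2 subtype and the common autoreceptor of noradrenergic neurons, did not pass the test in any comparison. It was at 1.19, 0.763 and 0.795 CPM in acute unlesioned and at 1.04, 1.09 and 1.63 CPM in acute lesioned libraries. In the chronic groups it was at 1.19, 0.968 and 1.30 CPM in unlesioned and at 1.06, 1.79 and 0.647 CPM in lesioned libraries. The groups overlapped in both treatments, and the chronic lesioned libraries were the most dispersed. The lesion log2 fold change was 0.44 (95% interval -0.0082 to 0.88) after acute and 0.016 (95% interval -0.64 to 0.67) after chronic L-DOPA. Without single libraries the acute value ranged from 0.20 (without the acute lesioned library numbered 3) to 0.69 (without the acute unlesioned one numbered 1). An antisense clone overlaps this gene.

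Of the beta receptors, Adrb1 (chr19:56796862-56799352, plus strand, mm9) rose on the lesioned side. It is an intronless gene for the receptor subtype that couples noradrenaline to cyclic AMP in forebrain neurons. It was at 3.98, 3.57 and 3.97 CPM in acute unlesioned libraries and at 5.33, 4.58 and 5.48 CPM in acute lesioned ones. In chronic unlesioned libraries it was at 3.46, 3.16 and 3.56 CPM, and in chronic lesioned ones at 8.64, 6.47 and 9.36 CPM. The chronic lesioned libraries lay above all others. Th was high in the same libraries, at 9.64, 8.30 and 10.9 CPM against at most 2.05 CPM in the other 9. It passed the edgeR test in the chronic lesion comparison (log2 fold change 2.39) and in the interaction (2.72), and its part in the Adrb1 level was not tested. The lesion log2 fold change was 0.43 (SE 0.086, adjusted p = 0.00742) after acute and 1.26 (SE 0.13, adjusted p = 0.000156) after chronic L-DOPA, by the edgeR quasi-likelihood test, Benjamini-Hochberg adjusted. This is a level 1.34-fold higher after acute and 2.40-fold higher after chronic L-DOPA. All 3 annotated Adrb1 transcripts passed the test in both comparisons, with log2 fold changes of 0.43 to 0.60 and 1.25 to 1.5. The shorter ones lie within the longest and share its reads, so these are not separate results. With the cortical marker score as a covariate the changes were 0.46 and 1.33.

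Adrb3 (chr8:28336248-28340060, minus strand, mm9), known mainly from fat tissue, had 1 to 14 reads per library. It passed the filter in no comparison and was not tested. A count of 3 reads corresponds to 0.0171 to 0.0347 CPM in these libraries, and Adrb3 stood at 0.00911 to 0.130 CPM. Its groups overlapped. An antisense clone with 32 counts over all libraries overlaps this gene, and reads of the pair cannot be told apart.

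**Figure D4:**
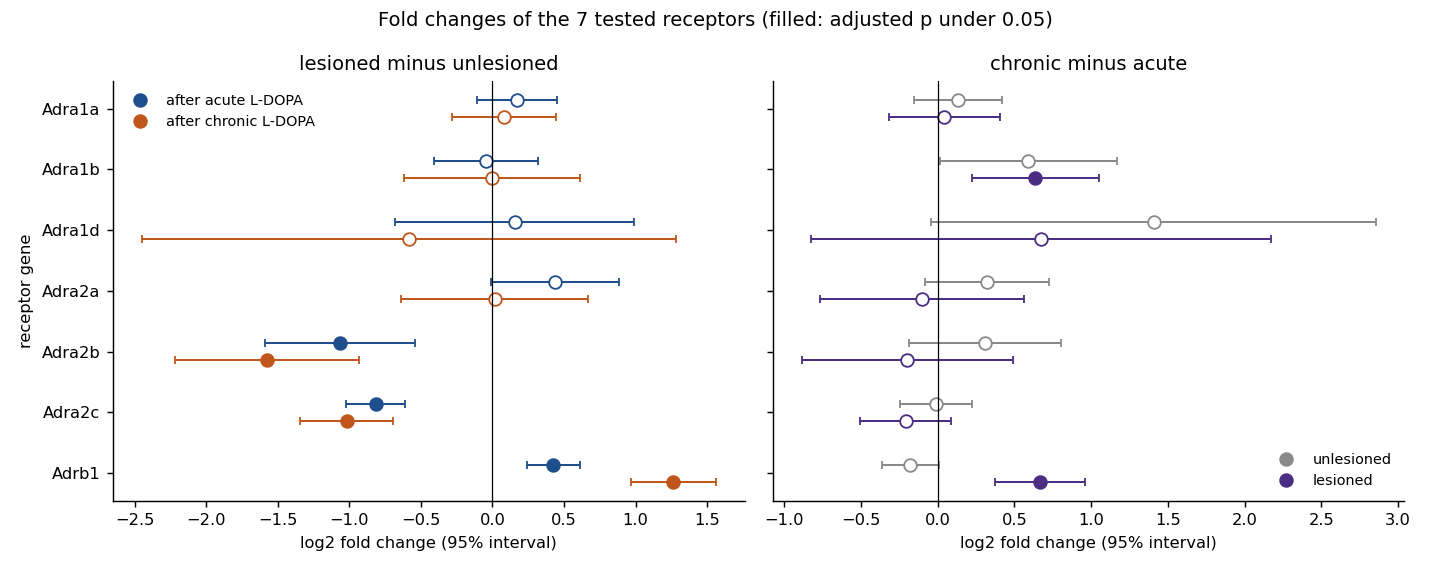
Points give the log2 fold change of the 7 tested receptor genes and bars the 95% interval, for lesioned minus unlesioned striatum (left) and chronic minus acute L-DOPA (right), with filled points at an adjusted p under 0.05. The Adrb1 lesion effect moves from 0.43 after acute to 1.26 after chronic L-DOPA, while the Adra2c effects, -0.81 and -1.02, have overlapping intervals.

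The difference between the lesion effects of the 2 treatments was tested as an interaction over all 12 libraries. Of the 7 members, Adrb1 passed, beside 5.1% of 20682 genes. Its lesion effect was larger by 0.84 on the log2 scale after chronic than after acute L-DOPA (SE 0.17, adjusted p = 0.00929, the edgeR quasi-likelihood test, Benjamini-Hochberg adjusted). Adra2c did not pass, with a difference of -0.20 (95% interval -0.62 to 0.22), and neither did Adra2b, with -0.51 (95% interval -1.35 to 0.33). For Adra1d the interval ran from -3.17 to 1.70.

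Between treatments on the lesioned side, 2 of the 7 members passed, both higher after chronic L-DOPA, beside 25.6% of 19790 genes. The libraries of these 2 did not overlap, as for 42.1% of genes. Adrb1 rose by 0.67 (SE 0.13, adjusted p = 0.00547), by the edgeR quasi-likelihood test, Benjamini-Hochberg adjusted. Adra1b rose by 0.64 (SE 0.19, adjusted p = 0.0325) in the same edgeR test, which is 1.55-fold. In the same comparison 8 of 8 oligodendrocyte markers and 7 of 9 microglial markers were called lower, with median log2 fold changes of -0.84 and -0.61, and their part in the levels of Adrb1 and Adra1b was not tested. The Adra1b call was lost when all 12 libraries entered 1 fit (log2 fold change 0.64, adjusted p = 0.0854 by edgeR), with the cortical marker score as a covariate (0.63, adjusted p = 0.0692 by edgeR), and without any 1 of 4 libraries. Those were the acute lesioned libraries numbered 2 and 3 and the chronic lesioned ones numbered 2 and 3, with log2 fold changes from 0.46 to 0.68 and adjusted p from 0.0602 to 0.0970 by edgeR. This comparison and the chronic lesion comparison share the chronic lesioned libraries. The Adra2c value was -0.21 (95% interval -0.51 to 0.089), and without the chronic lesioned library numbered 3 it passed the test at -0.38 (adjusted p = 0.0485 by edgeR).

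On the unlesioned side, 0 of the 7 members passed edgeR's test between treatments and 0 passed DESeq2, beside 3.07% of 20290 genes by edgeR. At an unadjusted p under 0.05, 1 member passed in edgeR, Adra1b at 0.59 (SE 0.26), which was 0.18 without the chronic unlesioned library numbered 2. The share of all genes at that unadjusted threshold was not computed, so this count has nothing to be set beside. Adrb1 was the member whose libraries did not overlap here, as for 26.4% of genes. Its level was 3.39 ± 0.212 CPM after chronic and 3.84 ± 0.232 CPM after acute L-DOPA (SD, n = 3), a log2 fold change of -0.18 (95% interval -0.36 to 0.0081). Adra1d had the widest interval, 1.41 (95% interval -0.041 to 2.85), which fell to -0.14 without the chronic unlesioned library numbered 2. Of the glial markers, 4 of 9 microglial, 2 of 9 astrocyte and 1 of 8 oligodendrocyte markers were called lower on this side and 0 higher. Their median log2 fold changes were -0.41, -0.083 and -0.20, and their part in the receptor levels was not tested.

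A list of 43 other genes of the adrenergic pathway was read beside the receptors, and 40 of them were tested. The genes for noradrenaline synthesis and reuptake, Dbh and Slc6a2, were at or near 0 in every library, whereas Th was higher in chronic lesioned libraries, as given with Adrb1. In the acute lesion comparison 12 of the 40 passed, 5 higher and 7 lower, beside 15.3% of all genes. In the chronic one 6 passed, 1 higher and 5 lower, beside 13.7% of all genes. With the replicate number as a block, the acute count was 17, with 10 higher and 7 lower, beside 25.1% of all genes, and the chronic count was 14, with 3 higher and 11 lower, beside 24.2%. The acute count was 6 with all 12 libraries in 1 fit, beside 10.4% of all genes. The chronic count was 2 with the cortical marker score as a covariate, beside 7.9% of all genes, and 3 to 7 when single libraries were left out, with 3 without chronic unlesioned replicate 1 or replicate 3. The median log2 fold changes of the 40 without the block were 0.017 and -0.066.

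Gnai3, which encodes an inhibitory G protein alpha subunit used by alpha-2 receptors, rose in both lesion comparisons. It was at 7.63, 7.33 and 6.42 CPM in acute unlesioned and 16.9, 16.8 and 15.9 CPM in acute lesioned libraries. The chronic unlesioned libraries had 7.06, 7.57 and 6.58 CPM and the chronic lesioned ones 17.9, 21.4 and 18.6 CPM, with no overlap. The log2 fold changes were 1.21 (SE 0.074) and 1.45 (SE 0.095). Slc22a3, a low-affinity transporter that clears noradrenaline, fell by 0.53 (SE 0.092) and by 0.72 (SE 0.13) on the log2 scale. Adcy9, an adenylyl cyclase, fell by 0.35 (SE 0.065) and by 0.52 (SE 0.14). Kcnj9, a potassium channel subunit gated by G proteins, fell by 0.23 (SE 0.065) and by 0.29 (SE 0.080).

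Other genes of the list passed in 1 lesion comparison. Microglial markers, with 4 of 9 called higher in the acute one, summed to 84.7 to 89.5 CPM in acute unlesioned and 94.7 to 113 CPM in acute lesioned libraries, and their part in the acute changes was not tested. After acute L-DOPA, Prkcd, a protein kinase C, rose by 0.76 (SE 0.17), Gnas, the Gs alpha subunit gene, rose by 0.45 (SE 0.072), and Plcb1, a phospholipase C, fell by 0.35 (SE 0.075). After chronic L-DOPA, Kcnj3, a potassium channel opened by Gi-coupled receptors, was lower by 0.79 (SE 0.16) on the lesioned side. It averaged 4.55 CPM in acute unlesioned and 4.29 CPM in acute lesioned striatum. The averages were 5.86 CPM in chronic unlesioned and 3.38 CPM in chronic lesioned striatum. With the cortical covariate the chronic calls of Gnai3 (log2 fold change 1.35) and Slc22a3 (-0.77) held in the edgeR test. Kcnj3 (-0.67), Kcnj9 (-0.24) and Adcy9 (-0.25) kept their sign but did not pass, and of these 5 the Adcy9 value alone moved by over 1.5 times.

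Between treatments on the lesioned side, 10 of the 40 passed, 3 higher and 7 lower, a share near the 25.6% of all genes. The count was 4 without the chronic lesioned library numbered 1 and 16 without the one numbered 2. Maob, a monoamine oxidase, fell by 0.78 (SE 0.093), Gnai2 by 0.42 (SE 0.094) and Adcy2 by 0.42 (SE 0.085). Prkce rose by 0.43 (SE 0.093), Adcy3 by 0.26 (SE 0.084) and Kcnj9 by 0.24 (SE 0.076). Of 9 astrocyte markers 3 were lower and 1 higher in this comparison (median log2 fold change -0.25), and of 7 mural cell markers 3 were lower and 1 higher (-0.41). The part of these and of the lower oligodendrocyte and microglial markers was not tested. On the unlesioned side 0 of the 40 passed by edgeR and 4 by DESeq2, beside 7.0% of all genes with an adjusted p in DESeq2. At an unadjusted p under 0.05 there were 11, without a share of all genes to set them beside. Of the genes named for the lesioned side, Kcnj9 was at 0.30 (SE 0.071) on the unlesioned side, Prkce at 0.034 and Adcy3 at -0.021. Maob was at -0.29, Gnai2 at -0.070 and Adcy2 at -0.14 there. For the interaction the counts were 0 by edgeR, 2 by DESeq2 (beside 8.83% of genes) and 9 when replicate numbers were blocked (beside 13.4%). At an unadjusted p under 0.05 the interaction count was 10, again without a share of all genes beside it.

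For each receptor that passed the filter over the 12 libraries, the gene with the most similar profile was found among 11026 genes, by Pearson's r of log2 CPM with a pseudocount of 0.5. The libraries share groups and tissue content, so r is a description. Slc8a2, a sodium-calcium exchanger gene, was most like Adra2c (r = 0.985), and Fam13c most like Adrb1 (r = 0.981). Fam13c averaged 10.2 CPM in chronic unlesioned and 21.7 CPM in chronic lesioned striatum. Zfp213 was most like Adra2b (r = 0.953), Vsnl1 most like Adra2a (r = 0.895) and Lrch1 most like Adra1a (r = 0.859). Esrrg was most like Adra1d (r = 0.987), and it too was highest in the chronic unlesioned library numbered 2, at 12.1 CPM. Nrip3 (r = 0.941), Syt13 (r = 0.914) and AU014716 (r = 0.890) were most like Adra1b.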

How the data were processed

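RNA sequencing of 12 striatal libraries, 3 in each of 4 groups, was analysed. Libraries came from a TruSeq kit and were read on a Genome Analyzer II. The authors mapped reads to mm9 with a Genomatix Mining Station and deposited raw read counts per transcript. DESeq is named in the submitters' processing notes. Treatment of reads with several positions is not given in the sources used here. The deposited lengths of transcripts in bases, listed per the file headers as another measure, were used for levels per kilobase. Not used were 48 per-sample columns: 12 of normalized expression, and 36 in 3 tables of the authors' comparisons, which also hold fold changes and p-values.

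The 296 transcripts without a gene symbol (0.0485% of counts) were left out. Counts were filtered with filterByExpr, scaled by TMM and tested over all transcripts with edgeR 4.0.16 (quasi-likelihood test, Benjamini-Hochberg adjustment, threshold 0.05) in R 4.3.3, with the groups compared in each fit and all 12 libraries for the interaction. CPM use TMM-scaled library sizes, and 95% intervals use the fit's degrees of freedom. The fit was tested on simulated data with 200 changed transcripts, of independent counts and the same dispersion for all, unlike these data. In the acute lesion setting it called 92 of the 2-fold and 100 of the 4-fold changes, with 13 false calls. In the interaction setting it called 41 of the 2-fold and 99 of the 4-fold changes, with 6 false calls. Each gene was read from its most abundant transcript. Named were all members, up to 3 called pathway genes with the largest and 3 with the smallest fold change in each comparison, and the gene most like each member (3 for Adra1b) among genes averaging at least 1 CPM, leaving out symbols that start with AK, BC, Gm or LOC and digits or end in Rik. Some genes that this rule names are not reported here. Marker lists were summed, and the cortical marker score is their mean standardized log2 CPM. The members and lists were chosen with earlier results of these data known. Alternatives were DESeq2 1.42.0, its size factors, no filter, a threshold of 0.01, 1 transcript per gene, the longest transcript, all libraries in 1 fit, a replicate block, a cortical marker covariate and leaving out each library.

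Same-numbered libraries of the 2 sides deviated together from their group means. The correlations were 0.485, 0.442 and 0.390 in the acute and 0.528, 0.568 and 0.153 in the chronic comparison. The numbers were taken to pair the sides, less surely in the chronic comparison. There the lesioned library numbered 1 and the unlesioned one numbered 3 reached 0.162, above the third same-numbered pair. Fold changes, SE and adjusted p are from the fits without the block unless said otherwise. Between treatments the correlations of same-numbered libraries were -0.114, -0.181 and 0.248 on the lesioned side, and the numbers were not taken as pairs. No 2 libraries of a group agreed within sampling noise (chi-square per degree of freedom 6.62 to 30.9). The labels count 12 mice but do not say which libraries share an animal, so p-values measure the spread between these libraries.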

Additional observations from a re-analysis of the deposited data

Results flagged for a closer look

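Adrb1 was singled out because its lesion effect differed between treatments in a test of the difference itself. The effect was larger by 0.84 on the log2 scale after chronic than after acute L-DOPA, and it was between 0.73 and 0.99 in 21 alternatives, all past the threshold of 0.05. The groups of 3 libraries are too small for a test of single outlying libraries.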

How the results depend on the processing

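Across the alternatives, 523 of 572 member fold changes kept their direction and their side of the threshold. Those of Adra2c and Adrb1 kept both in the lesion comparisons under every alternative run, at -0.88 to -0.69 and 0.38 to 0.49 after acute and at -1.18 to -0.86 and 1.16 to 1.42 after chronic L-DOPA. The count of called members stayed within 1.5 times except between treatments on the lesioned side. There it was 1 with all 12 libraries in 1 fit, with the replicate block, with the cortical covariate and at a threshold of 0.01. It was 1 to 2 when single libraries were left out. Over all transcripts 29699 were called there in the main fit, 35076 with all 12 libraries, 27758 with the block and 24450 with the covariate.

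The 36 changes of sign were all of values that had not passed the test in the comparison concerned. With the cortical covariate Adra1b became 0.074 in the acute lesion comparison and -0.045 in the interaction. In the chronic lesion comparison Adra1b became 0.00079 with DESeq2 size factors, 0.022 with the replicate block and 0.25 without both chronic libraries numbered 2, an alternative chosen after seeing the data, under which Adra1a became -0.061 and Adra2a -0.55. Adra2a became -0.049 with the block. Between treatments, Adra1a became -0.10 with the longest transcript on the lesioned side and Adra2c 0.0015 with 1 transcript per gene on the unlesioned side. Leaving out single libraries gave ranges through 0. They were -0.17 to 0.057 (Adra1b) and -0.56 to 0.41 (Adra1d) in the acute lesion comparison. In the chronic one they were -0.064 to 0.18 (Adra1a), -0.21 to 0.41 (Adra1b), -2.15 to 0.96 (Adra1d) and -0.44 to 0.32 (Adra2a). Between treatments on the lesioned side they were -0.11 to 0.14 (Adra1a), -0.90 to 1.38 (Adra1d) and -0.57 to 0.20 (Adra2a), and on the unlesioned side -0.14 to 1.83 (Adra1d) and -0.090 to 0.12 (Adra2c). In the interaction they were -0.24 to 0.0063 (Adra1a), -0.15 to 0.46 (Adra1b) and -2.30 to 0.81 (Adra1d). The cause was not tested.

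Counts of called pathway genes moved more. In the acute lesion comparison they were 17 with the replicate block, 15 with the cortical covariate, 6 with all 12 libraries and 6 at a threshold of 0.01, and 7 to 12 when single libraries were left out. In the chronic one they were 14 with the replicate block, 2 with the cortical covariate and 3 at a threshold of 0.01, and 3 to 7 when single libraries were left out. Between treatments on the lesioned side they were 5 at a threshold of 0.01 and 4 to 16 when single libraries were left out. On the unlesioned side they were 4 with DESeq2, 4 with no filter, 1 with 1 transcript per gene, 2 with all 12 libraries, 2 with the block, 2 with the covariate, and 0 to 6 when single libraries were left out. For the interaction they were 2 with DESeq2, 1 with no filter, 9 with the replicate block, 1 with the covariate, 4 without both chronic libraries numbered 2, and 0 to 5 when single libraries were left out. Calls over all transcripts moved too. In the acute lesion comparison they were 16684 in the main fit, 28240 with the block, 20250 with the covariate and 11144 with all 12 libraries. In the chronic one they were 15295, 27506 with the block and 8732 with the covariate. Leaving out single libraries gave 16025 to 36534 between treatments on the lesioned side, 66 to 14377 on the unlesioned side and 3794 to 9536 for the interaction.

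The replicate block changed no call of a member in the lesion comparisons or the interaction. Between treatments, where numbers do not pair libraries, Adra1b was at 0.62 with it (adjusted p = 0.0536 by edgeR). DESeq2 gave no adjusted p for Adra1d and Adra2b in the interaction. Depth limits Adrb3, at 1 to 14 reads.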
